A study of Homo sapiens with 4 samples.

Results

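Nuclear pseudogenes are copies of genes in the chromosomes that are not taken to code for the protein of the gene they came from. They were taken from the table of 4 RNA-seq libraries as every row whose type was a kind of pseudogene, leaving out 3 copies of mitochondrial genes and any row on the mitochondrial genome. This left 97 pseudogenes of 2897 genes, of which 88 were processed pseudogenes, 5 transcribed processed pseudogenes, 2 unprocessed pseudogenes, 1 a transcribed unprocessed pseudogene (SBDSP1) and 1 a transcribed unitary pseudogene (C19orf48). The parent of a pseudogene was the gene whose symbol remains once the final P and number are taken off, as RPL10 is the parent of RPL10P9. Symbols of that form were carried by 70 members, and the table listed the parent of 58 of them, which made 58 pairs with 48 different parents.

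The libraries came from 2 established human gastric cancer (GC) cell lines, AGS-1 (named AGS in the label of the cell line, a gastric adenocarcinoma) and HGC-27 (a gastric carcinoma), both wild type and grown in RPMI-1640 medium with fetal bovine serum. In each line, 1 library was made of control cells and 1 of cells treated with isorhamnetin (ISO), a flavonoid that is a methylated form of quercetin. The labels give 50 μM ISO for 24 h, and the text of the study gives a lower dose for these libraries. Values were FPKM, fragments scaled by the length of the gene and the total of the library, and the 4 libraries held between 15235004 and 20199425 fragments. The text of the study speaks of duplicates, and whether a column of the table is a single replicate or a merge of several is not given in the sources used here. A comparison of ISO with control within a line set 1 library against 1 and carried no p-value. A ratio was called at 2-fold or more. The standard errors (SE) printed with log2 ratios of ISO over control, or with their differences, cover the counting of fragments only. Those printed with log2 differences or coefficients of AGS-1 against HGC-27 come from the limma model fitted to all 4 libraries. Ratios were log2 of FPKM + 1, so the change of low genes is understated. In RNA from a whole culture, fewer cells that carry a transcript and less of it per cell cannot be told apart.

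The cell types were checked on marker genes. Of 7 epithelial markers 5 were listed (EPCAM, KRT8, KRT18, KRT19 and CLDN4), and they summed to 2130 and 1360 FPKM in the control and ISO libraries of AGS-1 but to 4.42 and 3.58 FPKM in HGC-27, with KRT19 listed at 0 there. Of 6 mesenchymal markers 3 were listed (VIM, TWIST1 and SPARC), at 0.712 and 0.860 FPKM in AGS-1 and 734 and 483 FPKM in HGC-27. The epithelial label was thus borne out in AGS-1, and in HGC-27 the listed epithelial markers were near 0. LYZ, the only listed leukocyte marker of 4, was at 594 and 314 FPKM in AGS-1 and listed at 0 in HGC-27, and COL1A1, the only listed fibroblast marker of 4, at 9.71 and 6.83 FPKM and at 348 and 313 FPKM. None of the 3 endothelial markers was listed. Whether these differences have a part in any result on pseudogenes was not tested.

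A processed pseudogene arises when the mRNA of a gene is copied into DNA and put back into the genome at another place. It holds the exons without the introns and, as a rule, lacks the promoter of its parent. Genes with abundant, short mRNAs have the most such copies, and those of the ribosomal proteins, which make up the protein part of the ribosome, are the best known. Because a young copy differs from its parent at few bases, a short sequenced fragment of one can often be placed on either, and how a pipeline shares out such fragments sets the value of both.

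To show how little separates pseudogene and parent, stretches of the members that the results turn on are given from GENCODE 29 transcripts (GRCh38), 5′ to 3′. In lower case, bases are shared by both, and capitals mark those that differ. Each stretch lies within the coding part of the parent and is the window of at most 150 bases with the most differences. RPL39P3 (chr6:73373108-73373263, minus strand) and RPS28P7 (chr11:82689559-82689768, plus strand) were identical to RPL39 and RPS28 over their whole length of 156 and 210 bases, so 1 line stands for both genes of each pair.
RPL39P3 and RPL39: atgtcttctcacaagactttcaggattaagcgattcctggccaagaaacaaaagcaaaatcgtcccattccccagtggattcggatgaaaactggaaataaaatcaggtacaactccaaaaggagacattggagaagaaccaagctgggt
RPS28P7 and RPS28: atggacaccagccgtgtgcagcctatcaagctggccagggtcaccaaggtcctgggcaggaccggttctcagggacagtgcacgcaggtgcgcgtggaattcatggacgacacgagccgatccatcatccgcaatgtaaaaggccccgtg
For RPL10P9 (chr5:168616352-168616996, plus strand), whose values in the 2 cell lines went against those of RPL10, 3 bases of 150 differed.
RPL10P9: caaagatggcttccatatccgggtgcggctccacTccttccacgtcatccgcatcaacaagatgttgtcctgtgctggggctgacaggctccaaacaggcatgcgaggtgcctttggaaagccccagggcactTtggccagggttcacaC
RPL10: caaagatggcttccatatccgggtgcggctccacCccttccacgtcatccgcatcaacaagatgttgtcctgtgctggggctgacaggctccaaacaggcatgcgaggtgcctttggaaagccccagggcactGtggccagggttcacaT
For TMSB4XP8 (chr4:90838903-90839037, minus strand), the only member past the threshold of the test of ISO, 1 base differed over the 132 bases of the coding part.
TMSB4XP8: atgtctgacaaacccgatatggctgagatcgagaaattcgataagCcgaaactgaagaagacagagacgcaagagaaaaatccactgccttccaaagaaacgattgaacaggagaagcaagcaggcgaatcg
TMSB4X: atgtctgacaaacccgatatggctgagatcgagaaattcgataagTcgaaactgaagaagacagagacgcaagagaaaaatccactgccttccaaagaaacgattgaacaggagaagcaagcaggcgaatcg
ANXA2P2 (chr9:33624274-33625293, plus strand) had the largest fall in AGS-1, and differed from ANXA2 at 6 bases of 150.
ANXA2P2: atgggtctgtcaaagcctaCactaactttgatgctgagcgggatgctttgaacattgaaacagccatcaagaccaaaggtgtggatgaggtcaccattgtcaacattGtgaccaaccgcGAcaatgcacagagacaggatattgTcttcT
ANXA2: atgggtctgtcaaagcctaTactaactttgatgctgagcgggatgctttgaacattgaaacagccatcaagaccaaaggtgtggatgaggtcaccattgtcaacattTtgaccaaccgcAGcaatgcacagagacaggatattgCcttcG

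The pairs printed are typical of the whole set. Of the 93 members that could be aligned with a coding transcript of the parent or of the best coding match, 14 were identical to it over their whole length, 39 were at least 99% identical and 85 at least 97%. The median identity was 98.7%, and the median of the longest run without a difference was 205 bases. A run of at least 100 bases was found in 76 members. The 14 identical members were RPL39P3, RPL41P1, RPL41P5, RPL21P16, RPL36AP37, RPS28P7, ITGB1P1, DHFRP1, LSM12P1, BTF3L4P2, H3P6, a copy of RPS26 (AC004057.1) and 2 copies of RPL41 (AC016596.1 and AC090498.1). Bases in gaps count as differences here, which made SBDSP1 (chr7:72829425-72836701) the lowest of the members with a listed parent, at 77.3%. SBDSP1 copies SBDS, a ribosome maturation factor, and matched it at 754 bases, differed at 16 and had 205 bases in gaps. For 69 of the 70 members with a parent by symbol, the parent was also the best coding match in GENCODE 29, the exception being H3P6, which matched H3F3A, a gene of the histone variant H3.3.

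The pseudogenes were short and were spread over the genome. Their median length was 555 bases (42 to 3256), against 3894 bases for the other genes of the table. Introns of a coding gene held 37 of them, 14 on the strand of the host and 23 on the other, 2 overlapped an exon of a coding gene, and 58 lay outside coding genes. Only 4 hosts were listed in the table. AC008038.1, whose best coding match was EEF1G, a subunit of a translation elongation factor, overlaps an exon of CHCHD3 on the same strand. It was at 139 and 88.0 FPKM in control and ISO of AGS-1 and at 168 and 116 FPKM in HGC-27, and CHCHD3 went the same way, at 19.5 and 12.6 FPKM and at 31.5 and 19.7 FPKM. RPL18AP3, in an intron of TXNRD1 on the same strand, did not follow its host. It was at 165 and 91.0 FPKM in AGS-1 and at 418 and 295 FPKM in HGC-27. TXNRD1 was at 51.3 and 49.9 FPKM and at 29.7 and 29.2 FPKM. SMOC1, which holds RPL7AP6 on the opposite strand, was below 1 FPKM in all 4 libraries. RPS18P5 lies in PCNP on the opposite strand. PCNP was at 46.5 and 34.2 FPKM in control and ISO of AGS-1 and at 25.9 and 21.6 FPKM in HGC-27, whereas RPS18P5 was higher in HGC-27, and whether the fragments were counted by strand is not given in the sources used here.

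The parents of 12 members were not analysed here, since the table did not list them. They are 10 genes of GENCODE 29 and the symbol H3. Of these 10, PBX2, RNF5, RPS18 and TUBB lie on chromosome 6 between 28 and 34 Mb, the region of the major histocompatibility complex, where the table held 2 of its 98 genes of chromosome 6, and 10 rows of the table lay on alternative sequences of that region. The pseudogenes of these 4 parents were measured. RPS18 codes for a protein of the small ribosomal subunit, and its copy RPS18P5 was the second highest member of all.

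The levels of the listed pseudogenes were not low, and nor were those of the table as a whole. How the listed genes were chosen is not given in the sources used here, so the levels of pseudogenes left out of the table are unknown. All 97 had a mean of at least 1 FPKM, as had 2883 of all 2897 genes. A mean of at least 10 FPKM was reached by 96 members and by 98.1% of all genes, so the members stood near the whole table in this. The median of the members' means was 42.4 FPKM, beside 29.6 FPKM over all genes. Because the rows are short, this took few fragments: the members held 83911 and 58959 fragments in control and ISO of AGS-1 and 92754 and 69792 in HGC-27, which is 0.551%, 0.369%, 0.459% and 0.409% of the libraries. Of the 10 members with the highest mean, 9 were copies of ribosomal protein genes and 1 of EEF1A1, the elongation factor that brings tRNAs to the ribosome.

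The highest was RPL39P3, a copy of the gene of a very small protein of the large ribosomal subunit, at 267 and 396 FPKM in control and ISO of AGS-1 and at 1069 and 925 FPKM in HGC-27. RPS18P5 was at 235 and 280 FPKM in AGS-1 and at 507 and 510 FPKM in HGC-27. RPL41P1, a copy of the gene of the shortest ribosomal protein, was at 259 and 246 FPKM and at 618 and 337 FPKM. These 3 were higher in both HGC-27 libraries than in either AGS-1 library. RPS28P7 was at 571 and 385 FPKM in AGS-1 and at 192 and 180 FPKM in HGC-27. RPS2P5 was at 512 and 324 FPKM in AGS-1 and at 138 and 121 FPKM in HGC-27. Both of these had the opposite order, with no overlap between the lines. Line differences were common in the table, where 32.2% of all tested genes passed the limma test as higher in AGS-1 and 24.7% as higher in HGC-27. EEF1A1P5 was at 261, 192, 190 and 163 FPKM in the same order of libraries, where the ISO library of AGS-1 and the control library of HGC-27 were alike.

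**Figure D1:**
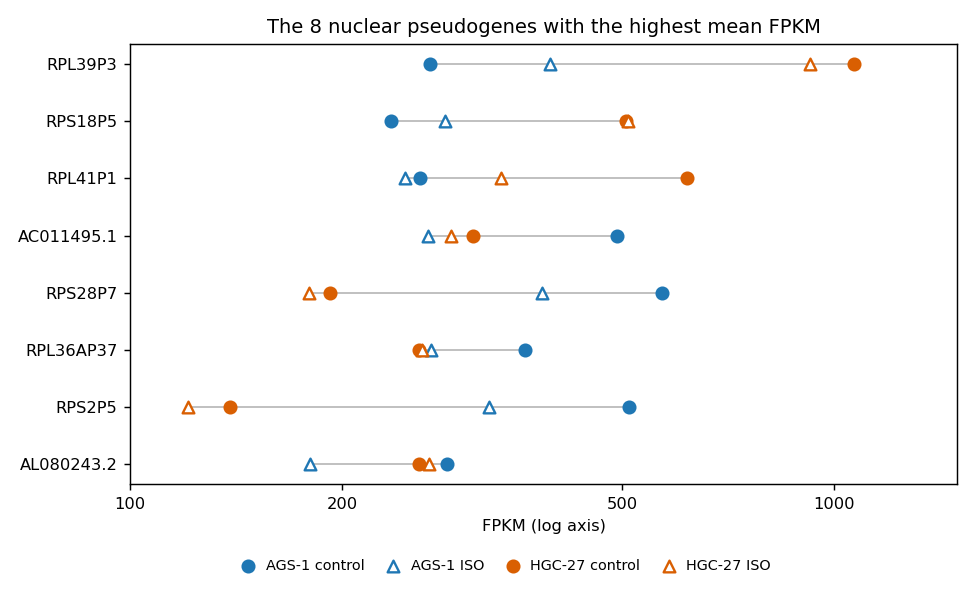
FPKM (log axis) of the 8 pseudogenes with the highest mean, 1 point per library, with filled circles for control, open triangles for ISO, blue for AGS-1 and orange for HGC-27. RPL39P3 reached 1069 FPKM in control HGC-27 cells, and RPS28P7 and RPS2P5 stood higher in both AGS-1 libraries than in both HGC-27 libraries.

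Next, each pseudogene was set against its parent per length of gene. Over the 58 pairs by symbol, the median pseudogene had 40.5% of the mean FPKM of its parent (1.51% to 712%). Counted as fragments, with no division by length, the median was 6.17% (0.353% to 52.2%). Thus 8 pseudogenes stood above their parent in mean FPKM and 0 in fragments. With the length of the aligned parent transcript in place of the longer gene length of the table, an alternative chosen after the data were seen, 3 stood above it. The lengths by which fragments are divided therefore decide this order. The 8 were RPL39P3, RPS28P7, RPS7P1 and RPL22P1 of ribosomal proteins, HMGB1P6 of a chromatin protein, MORF4L1P1 of a subunit of histone acetyltransferase complexes, EIF1AXP1 of a translation initiation factor and ITGB1P1 of integrin beta 1, a cell adhesion receptor.

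RPL39 itself was at 49.6 and 39.5 FPKM in control and ISO of AGS-1 and at 152 and 132 FPKM in HGC-27. Its identical copy RPL39P3 had 635 and 985 fragments in AGS-1 and 3367 and 2464 in HGC-27, which was 39.5%, 73.5%, 51.6% and 51.2% of the fragments of RPL39. Taken on FPKM + 1 of both genes, the share of this pair stayed within a 1.85-fold range. At the other end, GAPDHP1, a copy of the glycolytic enzyme gene GAPDH, had 1.04%, 0.965%, 1.44% and 2.11% of the FPKM of its parent in the 4 libraries in the same order.

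The share of the parent's level was fairly steady for most pairs and moved strongly for a few. The fold between the highest and the lowest share over the 4 libraries was taken on FPKM + 1 of both genes, which narrows it where the pseudogene is low. It had a median of 1.59, and it was under 2 for 40 of 58 pairs and at least 4 for 7. Sequence identity did not order the pairs closely: with the 12 pairs added by best coding match (70 in all), Spearman's rho over the pairs was 0.25 between identity and the share of the parent's FPKM and −0.26 between identity and the fold range. These pairs share libraries and, for 27 of them, parents, so both are descriptions. The 9 identical pairs had fold ranges of 1.20 to 7.52 on that scale, and the 61 others of 1.09 to 22.8. The widest was that of RPSAP47. Without the 1 FPKM added, its share of the FPKM of RPSA ranged more widely, at 5.59% and 7.87% in AGS-1 and 0.0537% and 0.308% in HGC-27.

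The comparison of the cell lines showed where the shares moved. By the limma test of AGS-1 against HGC-27 on all 4 libraries, with treatment in the model, 19 of 97 members (19.6%) were higher in AGS-1, where 32.2% of all tested genes were, and 23 (23.7%) were higher in HGC-27, beside 24.7% of all tested genes. The share of members higher in AGS-1 was thus below that of all genes, and the share higher in HGC-27 near it. With upper-quartile scaling the counts were 16 and 41 members, beside 27.6% and 36.3% of all genes, a scaling that moved the median of all genes from 0.05 to −0.16 on the log2 scale. This test has 1 residual degree of freedom, its 2 libraries a line differ in treatment, and they are not replicate cultures.

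The member with the largest coefficient was AL161669.2, a row of 42 bases with no coding match (log2 difference AGS-1 minus HGC-27 of 5.24 ± 0.32 (SE), adjusted p = 1.42e-08 by limma with Benjamini-Hochberg adjustment). It had 33 and 39 fragments in AGS-1 and 1 and 0 in HGC-27, so that the size of its coefficient depends on the 1 FPKM added before the logarithm. RPSAP47 and RPSAP15 copy RPSA, a protein of the small ribosomal subunit that also serves as a laminin receptor. RPSAP47 had 183 and 157 fragments in AGS-1 and 3 and 11 in HGC-27, and RPSAP15 had 534 and 438 in AGS-1 and 127 and 69 in HGC-27. Their coefficients were 3.22 ± 0.52 and 2.43 ± 0.20, while that of RPSA was −0.55 and did not pass the threshold (adjusted p = 0.0946 by limma). AC103810.3, whose best coding match was ARHGAP27, followed RPSAP47 in size with 48.5 and 39.2 FPKM in AGS-1 and 3.61 and 8.54 FPKM in HGC-27.

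RPL10P9 completed the 5 highest toward AGS-1. It was at 307 and 174 FPKM in AGS-1 and at 44.6 and 50.9 FPKM in HGC-27, a log2 difference of 2.26 ± 0.27. RPL10, which codes for a protein of the large subunit needed for joining the subunits, was at 141 and 96.2 FPKM in AGS-1 and at 276 and 230 FPKM in HGC-27, a log2 difference of −1.11 ± 0.25 (adjusted p = 0.00229 by limma). RPL10P9 therefore had 218% and 181% of the FPKM of RPL10 in AGS-1 but 16.2% and 22.1% in HGC-27. RPL10P16 is as close to RPL10 in sequence as RPL10P9, with 7 mismatched bases of 645 for each. It was at 175 and 127 FPKM in AGS-1 and at 194 and 158 FPKM in HGC-27, with overlapping lines.

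Such opposed pairs were few. Both genes passed the threshold in 18 of the 58 pairs, in the same direction in 14 (5 higher in AGS-1, 9 higher in HGC-27) and in opposite directions in 4. With median-of-ratios and upper-quartile factors, both genes passed it in 24 and 31 pairs, in the same direction in 18 and 25. The 4 on the deposited scale were RPL10P9, RPS28P7, RPS2P5 and RPS20P14, each higher in AGS-1 while its parent was higher in HGC-27. RPS28 was at 90.5 and 60.2 FPKM in AGS-1 and at 229 and 183 FPKM in HGC-27. The pseudogene, identical to it in sequence, had 631% and 640% of its FPKM in AGS-1 and 83.8% and 98.0% in HGC-27. RPS2 was at 876 and 515 FPKM in AGS-1 and at 1485 and 1242 FPKM in HGC-27, and the share of RPS2P5 was 58.5% and 62.8% in AGS-1 and 9.33% and 9.72% in HGC-27. RPS2P46, another copy of RPS2, had 20.2% and 23.2% in AGS-1 and 12.6% and 13.4% in HGC-27. For RPS20P14 the share of RPS20 was 94.5% and 55.3% in AGS-1 and 19.3% and 29.3% in HGC-27. In each of these pairs both AGS-1 libraries had a higher share than both HGC-27 libraries, and shares within a library do not depend on the scaling. As the pairs were picked by opposed line differences in the same libraries, this order of the shares is no separate support. RPL10P9 and RPS28P7 stood opposed to their parents under all 8 alternatives of the test and RPS2P5 under 7 of them. RPS20P14 did so under 3, and with either other scaling the copies of RPSA took its place, giving 6 opposed pairs.

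By the difference of both coefficients, 8 pairs were apart by at least 1 on the log2 scale, 7 with the pseudogene further toward AGS-1 and 1 toward HGC-27. Beside the 4 above, the 7 were the copies of RPSA, namely RPSAP47, RPSAP15 and RPSAP58. RPSAP58 had 36.3% and 27.8% of the FPKM of RPSA in AGS-1 and 13.4% and 12.7% in HGC-27. The only pair apart toward HGC-27 was SBDSP1, which had 17.1% and 36.6% of the FPKM of SBDS in AGS-1 and 59.5% and 61.3% in HGC-27. Whether the difference between pseudogene and parent exceeds the spread between cultures was not tested. Across the 58 pairs, which share libraries and partly parents, the coefficients of pseudogene and parent had a Pearson r of 0.44 and a Spearman rho of 0.45, given as a description.

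**Figure D2:**
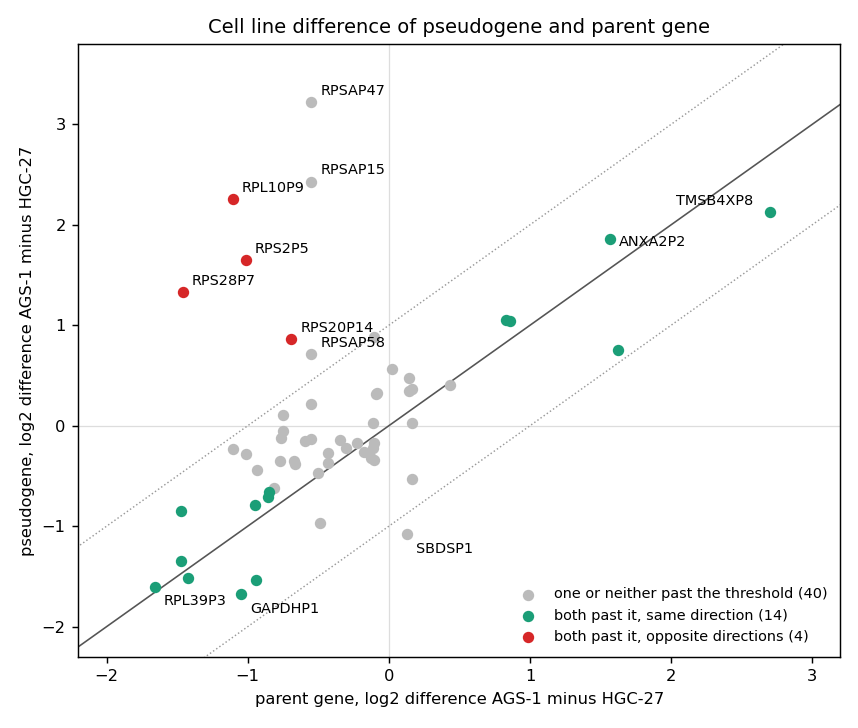
Log2 difference AGS-1 minus HGC-27 (limma coefficient) of 58 pseudogenes (vertical) against that of their parents (horizontal), 1 point per pair, with the diagonal solid and differences of 1 dotted. In 4 pairs, drawn in red at the upper left, both genes passed the threshold in opposite directions, while 14 pairs drawn in green passed it in the same direction.

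The 4 members most higher in HGC-27 were DHFRP1, GAPDHP1, RPL39P3 and PRELID1P6. DHFRP1, an identical copy of the gene of dihydrofolate reductase, which serves nucleotide synthesis, was at 13.2 and 9.19 FPKM in AGS-1 and at 40.7 and 39.2 FPKM in HGC-27 (log2 difference −1.77 ± 0.19), and its parent was not listed. GAPDHP1 was at 6.20 and 5.18 FPKM in AGS-1 and at 17.4 and 23.8 FPKM in HGC-27, and its parent went the same way with −1.05 ± 0.31. PRELID1P6, of a mitochondrial lipid transfer protein, had −1.54 ± 0.19 and PRELID1 −0.94 ± 0.20. RPL39P3 had −1.61 ± 0.32 and RPL39 −1.66 ± 0.22. These 4 pseudogenes were picked by the size of this difference, so the lack of overlap between their lines is no separate result. Each listed parent was higher in the same line.

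**Figure D3:**
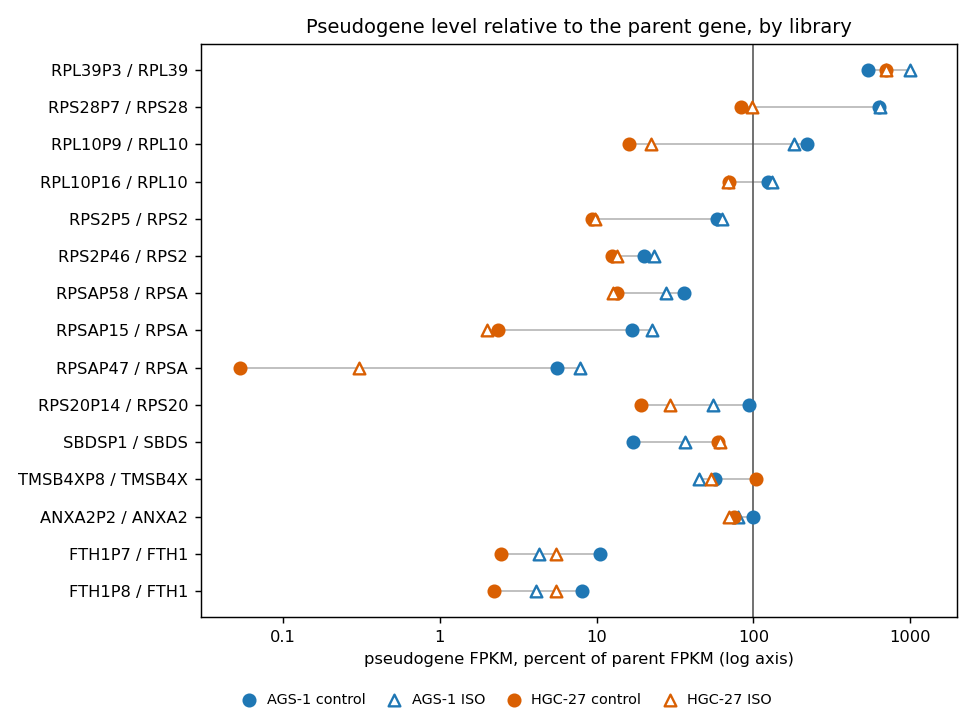
Pseudogene FPKM as a percent of the FPKM of its parent (log axis) in each of 4 libraries for 15 pairs, with a line at 100%. RPS28P7, RPL10P9, RPS2P5, RPSAP15 and RPSAP47 held a higher share in both AGS-1 libraries than in both HGC-27 libraries, and RPL39P3 stayed between 539% and 1002% in all 4.

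The next comparison asked what ISO did to the pseudogenes. In AGS-1, 10 of 97 (10.3%) fell at least 2-fold under ISO, beside 6.63% of all genes, and 0 rose, beside 0.828%. The median log2 ratio of the members was −0.46 (−1.49 to 0.90), with 86 members below 0, and over all genes it was −0.29, with 78.6% below 0. Thus most of the table went down in this line on the scale of the deposited values, the pseudogenes with it. Dividing by median-of-ratios factors instead brought the median of all genes to −0.02 and that of the members to −0.20. On that scale 3 of 97 members fell, beside 2.49% of all genes, and 1 rose, beside 1.73%. Upper-quartile scaling gave medians of 0.09 and −0.07. There 2 members fell, beside 1.55% of all genes, and 1 rose, beside 2.07%. Over these 3 scales, 55 members were below 0 on each, 11 above 0 on each, and 31 changed sign. The members that fell at least 2-fold on all 3 were ANXA2P2 and AC016739.1.

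Of the 10 that fell in AGS-1, 9 were copies of ribosomal protein genes, and ANXA2P2 was the other. ANXA2P2 copies the gene of annexin A2, a membrane-binding protein of epithelial cells, and fell from 275 to 97.1 FPKM (log2 ratio −1.49 ± 0.04), while ANXA2 fell from 275 to 121 FPKM. In HGC-27 the pseudogene was at 51.4 and 38.1 FPKM. In FPKM, pseudogene and parent were nearly level in control AGS-1 cells, with a share of 100%, and the share was 80.4% under ISO. Counted as fragments, with no division by length, the share was 8.82% in control and 7.08% under ISO. AC016739.1, the best coding match of which was RPLP1 of the ribosomal stalk, fell from 98.2 to 36.0 FPKM in that line, and RPLP1 had a log2 ratio of −0.64. RPS20P14 fell from 48.7 to 18.6 FPKM, RPS15P4 from 48.8 to 21.3 FPKM and RPSAP58 from 87.9 to 39.2 FPKM. In HGC-27, AC016739.1, RPS20P14 and RPS15P4 had log2 ratios of 0.18, 0.52 and 0.42, none of them called.

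The largest increases in AGS-1 stayed below 2-fold. RPL29P4, which the identifier table names as a copy of RPL29, went from 67.7 to 127 FPKM (log2 ratio 0.90 ± 0.08), while RPL29 went from 231 to 207 FPKM. In HGC-27 it was at 175 and 143 FPKM. RPL39P3 had log2 ratios of 0.56 ± 0.07 (AGS-1) and −0.21 (HGC-27), while RPL39 had −0.32 and −0.20. AC010343.1 was at 21.0 and 31.3 FPKM in AGS-1 and at 19.3 and 28.8 FPKM in HGC-27, a log2 ratio of 0.55 in both lines. RPS18P12 had 0.42 (AGS-1) and 0.86 (HGC-27), and PSPHP1, of an enzyme of serine synthesis, had 0.30 ± 0.31 and −0.49 ± 0.27, which counting error alone makes uncertain.

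In HGC-27, 3 of 97 members (3.09%) rose at least 2-fold, beside 0.552% of all genes, and 3 fell, beside 0.932%. The median of the members was −0.18, with 65 below 0, beside −0.11 over all genes and 64.2% below 0. Upper-quartile scaling gave 5 rises and 3 falls, beside 0.897% and 0.518% of all genes. The 3 that rose on the deposited scale were FTH1P8, FTH1P7 and AC103810.3. FTH1P7 (chr13:22696023-22696574) and FTH1P8 copy FTH1, the heavy chain of ferritin, which stores iron. FTH1P7 rose from 9.33 to 24.2 FPKM (104 to 228 fragments) and FTH1P8 from 8.48 to 24.5 FPKM (88 to 215 fragments), with log2 ratios of 1.29 ± 0.17 and 1.43 ± 0.18. In AGS-1, FTH1P7 had −0.44 ± 0.17 and FTH1P8 −0.12 ± 0.19. The parent had 0.84 in AGS-1 and 0.21 in HGC-27, so that the order of the lines was reversed between FTH1 and both copies, although neither line's value of FTH1 was called. AC103810.3 had 7 and 14 fragments in HGC-27, too few to fix its ratio (1.05 ± 0.67).

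The 3 that fell in HGC-27 were TMSB4XP8, AC005326.1 and AL161669.2, the last with 1 and 0 fragments. TMSB4XP8 copies TMSB4X, thymosin beta 4, which binds actin monomers, and was at 45.1 and 16.1 FPKM in control and ISO of HGC-27 (123 and 37 fragments, log2 ratio −1.43 ± 0.27). In AGS-1 it was at 164 and 90.1 FPKM (−0.86 ± 0.13), and TMSB4X had −0.53 in both lines. AC005326.1, a row of 123 bases with no coding match, stood at 69.2 and 25.2 FPKM in control and ISO of HGC-27 and at 31.0 and 23.4 FPKM in AGS-1. No member was called in both lines, beside 0.449% of all genes (13). Both ratios were below 0 for 59 of 97 members (60.8%) and for 56.0% of all genes, and they had opposite signs for 33 of the 97 members and 29.6% of all genes, so that the members stood near the whole table in these respects.

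The families were compared next, with the coding genes of each family beside the pseudogenes. The copies of ribosomal protein genes were 56 of the 97. Their median log2 ratio under ISO was −0.64 in AGS-1 (50 below 0, 9 falls, 0 rises) and −0.13 in HGC-27 (35 below 0, 0 called). The 73 ribosomal protein genes themselves had medians of −0.53 and −0.19, with 70 and 64 below 0 and 0 called in either line. The 9 falls are 16.1% of the 56, beside 6.63% of all genes, and became 2 with median-of-ratios and 1 with upper-quartile scaling, where 2.49% and 1.55% of all genes fell. The number below 0 in AGS-1 then went from 50 to 45 and 38. In AGS-1 the median of the copies stayed below 0 when the libraries were scaled by median-of-ratios factors (−0.37) or by the upper quartile (−0.23), but in HGC-27 it was −0.06 and 0.02, so that its sign flipped with the latter. The pseudogenes were thus more widely spread than the genes, from −1.42 to 0.90 against −0.93 to 0.15 in AGS-1. For the 7 copies of genes of translation factors, all 7 were below 0 in both lines, with medians of −0.53 and −0.33, which upper-quartile scaling brought to −0.12 and −0.18. The 33 coding genes of that family had −0.32 and −0.13. The 6 copies of genes of nuclear and chromatin proteins (among them H3P6, HMGB1P6, HNRNPA1P7, NPM1P27 and SUMO2P21) had medians of −0.36 and −0.01, with 0 called, and 41 coding genes had −0.33 and −0.01. With upper-quartile scaling all 4 of these medians were above 0. No keratin pseudogene was in the table, while 7 coding genes of keratins and vimentin were.

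**Figure D4:**
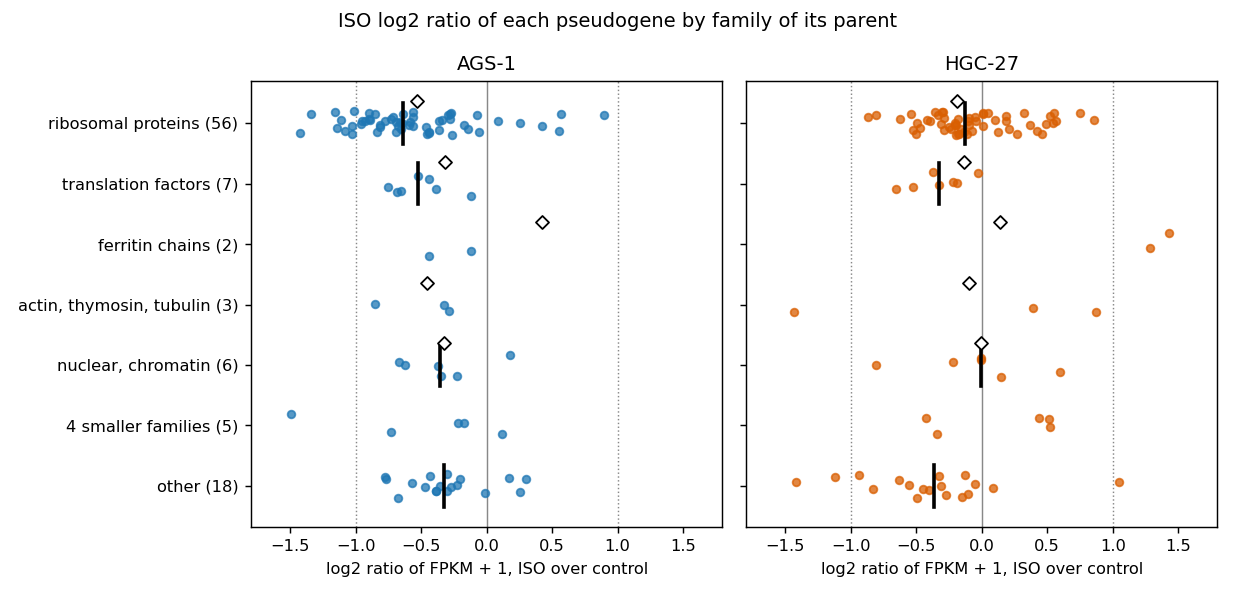
Log2 ratio of FPKM + 1, ISO over control, of each of 97 pseudogenes (points) by the family of the parent (4 small families, of glycolytic, cyclophilin, mitochondrial and annexin copies, share 1 row) in AGS-1 (left) and HGC-27 (right), with the number of pseudogenes in brackets, a black bar at the median of families of over 5 and an open diamond at the median of the coding genes of the family. Dotted lines mark 2-fold. The 9 ribosomal copies that fell at least 2-fold lie at the left of the AGS-1 panel, and both ferritin copies lie beyond 2-fold in HGC-27 alone.

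VDAC2P5, of a channel of the outer mitochondrial membrane, was at 27.1 and 15.9 FPKM in AGS-1 and at 28.4 and 22.2 FPKM in HGC-27. PPIAP22, of cyclophilin A, a protein folding enzyme, was at 125 and 111 FPKM and at 107 and 153 FPKM. TUBBP2, of a beta tubulin, was at 39.6 and 32.3 FPKM and at 34.2 and 63.4 FPKM. H3P6 was at 102 and 87.4 FPKM and at 56.1 and 62.3 FPKM. C19orf48, whose type is a unitary pseudogene with no parent, was at 97.4 and 65.1 FPKM and at 52.2 and 37.9 FPKM. None of these was called in either line.

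The shared change of both lines was tested with limma over the 2883 genes that averaged 1 FPKM or more, all 97 members among them. Of the members, 0 passed as higher (0.104% of all tested genes did) and 1 as lower (0.832%), which was TMSB4XP8 (log2 change −1.15, adjusted p = 0.0334 by limma). It was lower under ISO in both lines. At an unadjusted p under 0.05, 3 members (3.09%) were higher, beside 2.22% of all genes tested. At the same threshold 27 members (27.8%) were lower, beside 17.8% of all genes tested. The call of TMSB4XP8 was lost under 6 of 8 alternatives, with adjusted p from 0.00647 to 1.00 over the 8, the highest in a model without the cell line. Its parent had a log2 change of −0.53 (adjusted p = 0.220 by limma).

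The last comparison asked whether pseudogene and parent moved together under ISO. In AGS-1, 48 of 58 pairs were within 0.5 of each other on the log2 scale, and 3 were apart by at least 1. In HGC-27, 45 pairs were within 0.5 and 2 apart by at least 1. The medians were close, −0.56 for the pseudogenes and −0.53 for the 48 parents in AGS-1, and −0.20 and −0.22 in HGC-27. Across pairs, which share libraries and partly parents, Pearson's r was 0.35 and Spearman's rho 0.42 in AGS-1, and 0.59 and 0.59 in HGC-27, given as descriptions.

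The pairs apart in AGS-1 were FTH1P7, RPL15P3 and SBDSP1. RPL15P3, of a protein of the large subunit, fell from 109 to 49.7 FPKM while RPL15 was at 84.5 and 86.5 FPKM, a difference of −1.15 ± 0.08. SBDSP1 was at 12.9 and 10.9 FPKM while SBDS fell from 75.6 to 29.7 FPKM, a difference of 1.09 ± 0.15. FTH1P7 was lower than FTH1 by −1.28 ± 0.17, and FTH1P8 by −0.96 ± 0.19, just short of 1. In HGC-27 the same 2 copies of FTH1 were the pairs apart, and now above the parent, by 1.07 ± 0.17 and 1.22 ± 0.18. With a pseudocount of 5 in place of 1, neither was apart by 1. The share of FTH1P8 in the FPKM of FTH1 was 8.05% in control AGS-1, 4.10% under ISO, 2.22% in control HGC-27 and 5.55% under ISO. TMSB4XP8 was the pair furthest below its parent in HGC-27, by −0.91 ± 0.28.

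**Figure D5:**
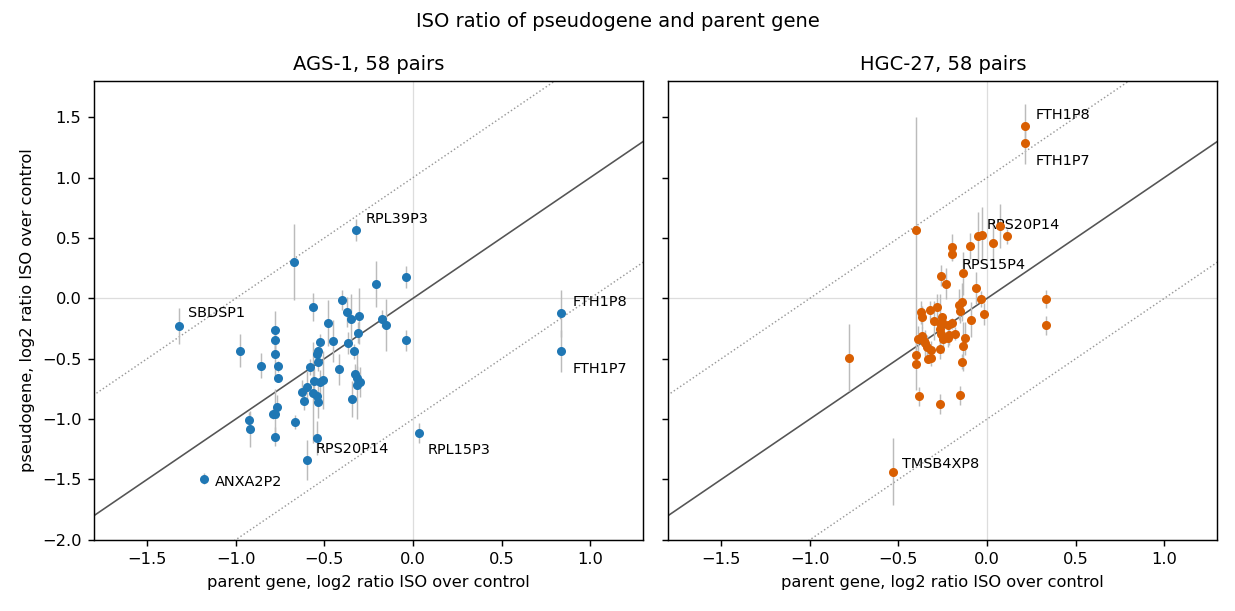
Log2 ratio ISO over control of 58 pseudogenes (vertical) against that of their parents (horizontal) in AGS-1 (left) and HGC-27 (right), with the counting standard error of the difference between both as bars, the diagonal solid and differences of 1 dotted. FTH1P7 lies below the lower dotted line in AGS-1, and FTH1P7 and FTH1P8 lie above the upper one in HGC-27.

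The other named pairs lay closer. Below the parent in AGS-1 were RPS20P14 by −0.74 and RPS15P4 by −0.62, and both were above it in HGC-27, by 0.57 and 0.62. Above the parent in AGS-1 were PSPHP1 by 0.97 ± 0.32, RPL39P3 by 0.89, PPP1R14BP3 by 0.54 and RPSAP47 by 0.51. Below it in HGC-27 were RPS7P1 by −0.65, RPL41P1 by −0.61, HMGB1P6 by −0.56 and HNRNPA1P7 by −0.43. HMGB1 and HNRNPA1 code for a DNA-bending chromatin protein and for an RNA-binding protein of splicing. The copies of RPL41 were at very different levels although all 4 were identical to it in sequence. RPL41P1 was at 259 FPKM in control AGS-1 cells, AC016596.1 at 101, RPL41P5 at 26.9 and AC090498.1 at 16.6 FPKM.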

How the data were processed

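RNA was measured in 4 libraries, control and ISO of AGS-1 and of HGC-27, with 1 library per condition. The submitters' processing notes name CASAVA 1.8, HISAT2 and GRCh38. The counting tool, the annotation, the treatment of fragments that fit several places and the choice of the 2897 listed genes are not given in the sources used here. The authors deposited FPKM values with gene lengths, coordinates and types, and no counts. FPKM times length was a whole multiple of 1 step for 100% of values in each library (tolerance 0.01), which gave back the fragments per gene and the library totals of 15235004, 15957590, 20199425 and 17072456 fragments for AGS-1 control, AGS-1 ISO, HGC-27 control and HGC-27 ISO. These served for depth and counting errors. Such errors leave out the variation between cultures.

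Log2 ratios used FPKM + 1, and 2-fold was the threshold. The shared ISO change and the cell line difference were assessed in R 4.3.3 by limma 3.58.1 (lmFit, eBayes with trend) on log2(FPKM + 1) in 1 model with both terms, for genes that averaged 1 FPKM or more, with Benjamini-Hochberg adjustment over all 2883 and a threshold of 0.05. The model was run on simulated data with the same noise level for every gene, lower than the spread the fit gave for the members. That run therefore does not show how the model fares on these data. Coding matches were found with blastn 2.17.0 and alignments made with Biopython 1.88 on GENCODE 29 transcripts, all 97 members being found there with the coordinates of the table. The table gave 71 members a symbol, and 9 more took one from a table of identifiers.

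Genes were named by rule: the 10 highest means, the 5 largest rises and falls in each line, the 5 largest line differences each way, the 5 pairs furthest apart each way in each line, pseudogenes above their parent, the highest of each family, members past the ISO test, and the highest and lowest identity. RPL10P16, RPS2P46, NPM1P27, SUMO2P21, C19orf48, AC008038.1, RPL7AP6 and the hosts CHCHD3, PCNP, TXNRD1 and SMOC1 are not covered by the rule and were picked once their values had been seen. Members, families and comparisons were chosen with earlier results of these data known. The alternatives were pseudocounts of 0.1 and 5, median-of-ratios and upper-quartile scaling, other filters, processed pseudogenes only, 1 pseudogene per parent, no trend and single-term models. The best coding match as parent and the length of the aligned transcript were added after seeing the data. Some items met by the rule are not reported here.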

Additional observations from a re-analysis of the deposited data

Results flagged for a closer look

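AC016596.1 and SUMO2P21 were set apart because their ISO ratios went in opposite directions in the cell lines by at least 1.5-fold each. AC016596.1 is a row of 78 bases identical to RPL41, the gene of the shortest ribosomal protein, and lies in an intron of IL6ST (chr5:55944656-55944733). It had 120 and 71 fragments in control and ISO of AGS-1 and 90 and 129 in HGC-27, log2 ratios of −0.81 ± 0.22 and 0.75 ± 0.20 (counting SE). RPL41 had −0.57 and −0.27. SUMO2P21 copies SUMO2, a small protein that is attached to others as a tag. It had 97 and 62 fragments in AGS-1 and 119 and 155 in HGC-27, log2 ratios of −0.67 and 0.60, while SUMO2 had −0.51 and 0.07. With 1 library per condition the difference between the lines was not tested for either.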

How the results depend on the processing

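Of 76 recomputed counts of calls and pairs, 57 stayed within 1.5 times the reported count and 19 did not. In AGS-1, falls went from 10 to 3 with median-of-ratios and 2 with upper-quartile scaling, beside 6.63%, 2.49% and 1.55% of all genes. Rises went from 0 to 1 with either, beside 0.828% of all genes on the deposited scale and 1.73% and 2.07% on these. In HGC-27, rises went from 3 to 5 with upper-quartile scaling, beside 0.552% and 0.897% of all genes. The 1 member lower in the shared ISO test became 4 with a pseudocount of 0.1, 5 among genes averaging at least 10 FPKM, and 0 with a pseudocount of 5, either other scaling, no filter, no trend or treatment as the only term. At unadjusted p under 0.05 these last 6 had 26, 17, 10, 23, 22 and 0 members lower. The shares of all genes under these settings are not given here. Neither these counts nor the adjusted ones therefore show whether the members differ from the table. The 23 members higher in HGC-27 became 41 with upper-quartile scaling and 13 with the cell line as the only term. All genes stood at 24.7%, 36.3% and 16.8% in the same order. Pairs apart in HGC-27 went from 2 to 0 with a pseudocount of 5 and to 1 with 1 pseudogene per parent. The 8 pseudogenes above their parent became 0 in fragments and 3 with the length of the aligned transcript. The counts in fragments and with the transcript length differ by the length divided by, and for the others the cause was not tested. No value changed sign past the threshold. Among 104 values of named genes, 35 moved with median-of-ratios and 60 with upper-quartile scaling by more than their counting error, and 1 with each pseudocount. No paired analysis was possible because the labels give 1 library per condition and no replicate numbers, and the cell line is already a term of the model. With 1 library per condition, leaving out a replicate was not possible within a line. Rows of under 100 bases and members with few fragments, such as AL161669.2 and RPSAP47 in HGC-27, are limited by depth.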
